A study of Saccharomyces cerevisiae with 18 samples.

Results

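Peroxisomes are small organelles bounded by a single membrane. In Saccharomyces cerevisiae they are the only site of fatty acid beta-oxidation, whose enzymes are made in the cytosol and imported fully folded. Peroxins, the products of the PEX genes, insert the membrane proteins, carry the enzymes in and set the number of organelles. The oxidation genes are known for induction by oleate through Oaf1, Pip2 and Adr1, and for repression by glucose. The genes described here were those whose array symbol was PEX followed by a number, together with 11 genes of fatty acid transport, activation and oxidation and the peroxisomal catalase. The rule found 29 genes among the 6218 present on both array layouts, 18 for peroxisome biogenesis and 11 for oxidation. Of the 18 biogenesis genes, 9 carried the PEX symbol as their first name and 9 as a later one, and DCI1 was listed under its older name EHD2.

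Spores of the diploid strain Y55 (HO gal3 MALI SUCI), formed in potassium acetate and freed of asci with zymolyase, were moved into pre-warmed rich medium (YPD) or into 2% glucose alone. RNA was taken at 0, 4, 8 and 16 min and then at 32, 48, 64, 96 and 128 min, labelled with Cy5 and hybridised against Cy3-labelled RNA of dormant spores, so that every value is a log2 ratio to dormancy and a log2 ratio of 1 is a 2-fold change. There were 53 arrays in 18 groups, with 3 biological replicates in each group except glucose at 0 min, which had 2. The whole spore population was extracted, so fewer cells that hold a transcript and less transcript per cell cannot be told apart. No dyes were swapped, and a dye bias of a gene cannot be told apart from a ratio to dormant spores, whereas it is shared by the times and media compared below.

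The median signal over background per array was 1.34 to 2.44 in Cy3 and 1.62 to 3.63 in Cy5, and between 8.87% and 25.3% of the gene spots of an array were left out for their quality flags. Replicate arrays correlated at 0.0627 to 0.942 over genes. The median over all genes lay between -0.03 and 0.02 on the log2 scale in every group. The arrays were quantified on 13 days, and among the YPD arrays only those of 8 min shared a day with those of 0 min, so that in YPD the time and the day cannot be told apart at the other 7 times. Where a day held both sides of a comparison, every called member with a value kept its sign within that day. They were 8 of 8 at 128 min against 0 min in glucose and 5 of 5 at 8 min against 0 min in YPD. Between media at 96 min they were 7 of 7. The same arrays had made the calls, with a single array on each side in glucose, so kept signs do not test a day effect. With day as a fixed block, 44 called differences that could be computed still passed, 79 no longer did and 1 changed sign. SPS100, a spore wall gene taken as a sporulation marker, was lower at 32 min than at 0 min in YPD by -4.51 (SE 0.36). Of the 14 sporulation markers 4 fell and 1 rose, with a median difference of -0.15, where 26.5% of all genes fell and 22.4% rose. The fall of SPS100 therefore does not stand for the list.

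Most genes of oxidation, and fewer of biogenesis, stood below dormant spores late in YPD. At 128 min 10 of the 11 oxidation genes stood at least 2-fold below dormant spores, with a background of 14.2% of all genes tested. The exception, the catalase gene CTA1, stood at 1.24. Cy5 of DCI1, among the 10, was not above background on any array of that group. Of the 18 biogenesis genes, 5 stood at least 2-fold below at that time, namely PEX11, PEX18, PEX19, PEX14 and PEX15, and none stood 2-fold above. In glucose at 128 min 7 of 11 oxidation genes and 3 of 18 biogenesis genes stood at least 2-fold below, against 9.03% of all genes tested.

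**Figure D1:**
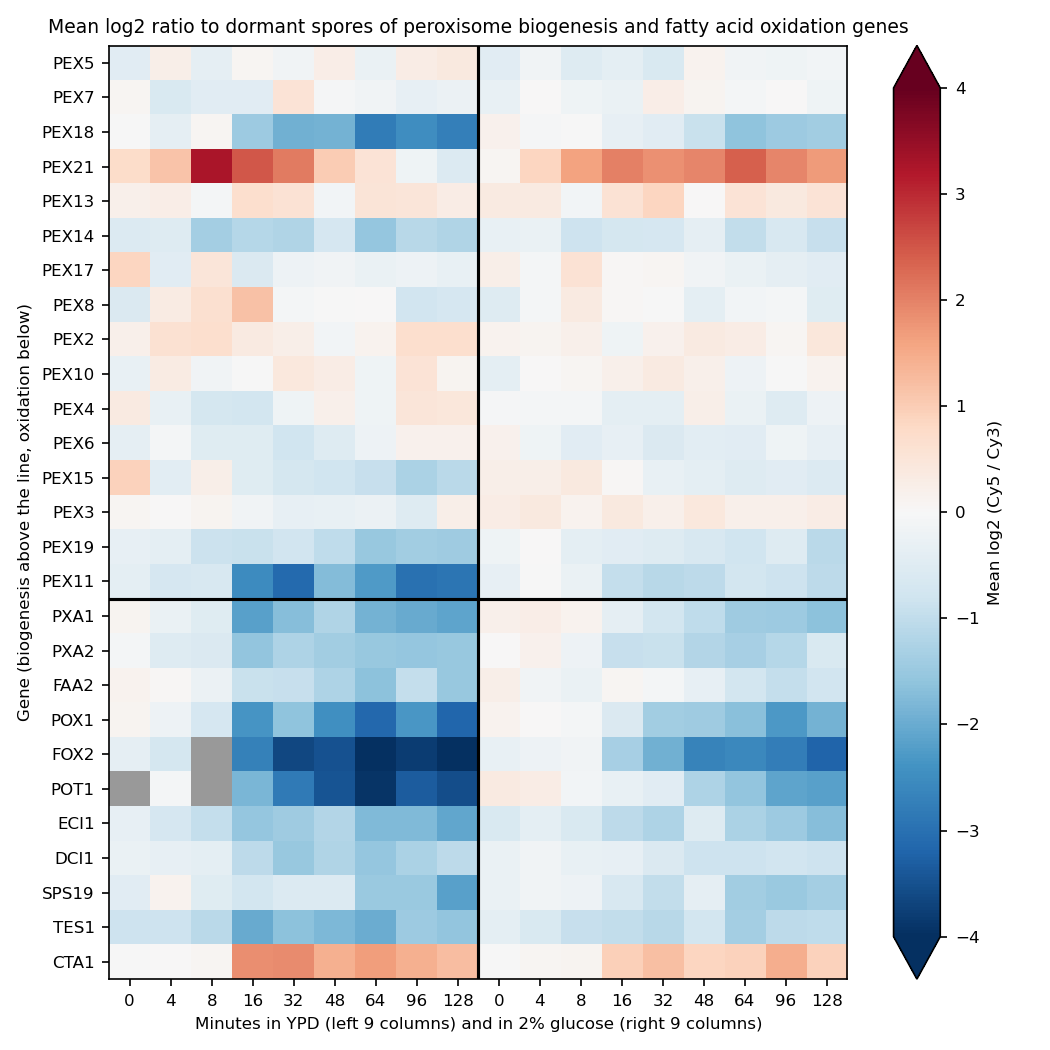
Mean log2 ratio of Cy5 to Cy3 (colour; blue below and red above dormant spores, scale ends at -4 and 4) for 27 of the 29 genes (rows, biogenesis above the line) in 9 times of YPD and 9 times of 2% glucose (columns, minutes). Grey marks FOX2 and POT1 groups with no kept spot. The oxidation rows turn blue from 16 min in YPD except CTA1, and among the biogenesis rows PEX18 and PEX11 turn the deepest blue there. PEX21 is red except at 96 and 128 min in YPD (-0.16 and -0.53).

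The median over the oxidation genes on a single array lay below that over the biogenesis genes on 26 of 27 YPD arrays and on 23 of 26 glucose arrays. In YPD the difference of the medians, oxidation minus biogenesis, was -0.17 ± 0.04 (SD, n = 3) at 0 min and -1.15 ± 0.55 at 16 min. From then on it moved without a steady order between -1.04 ± 0.47 (48 min) and -1.64 ± 0.12 (128 min). In glucose it was -0.21 ± 0.18 (SD, n = 2) at 0 min, and from 32 min it lay between -0.64 ± 0.17 (48 min) and -1.12 ± 0.41 (96 min, n = 3 each). Each median covered only the genes with a kept spot on that array. At 128 min in glucose the difference was -0.92 ± 0.56, and -1.25 ± 0.49 with flagged spots kept. The biogenesis median itself moved little and stayed between -0.46 and 0.01 in the 9 YPD groups, while the oxidation median went from -0.16 to -1.95. The difference at 32 min in glucose, -0.78 ± 0.05, depended on how background was handled, with -0.45 when no background was subtracted.

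**Figure D2:**
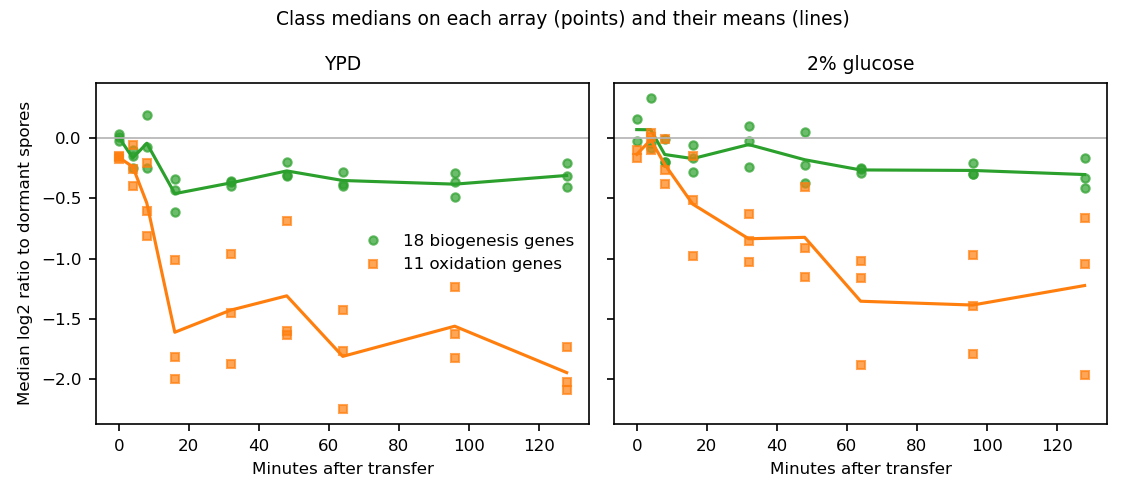
Median log2 ratio to dormant spores (vertical axis) of the 18 biogenesis genes (circles) and the 11 oxidation genes (squares) on each array, against minutes after transfer, with lines through the group means. Genes without a kept spot on an array are left out of its median. The squares separate from the circles at 16 min in YPD and later in glucose, reaching a mean of -1.95 at 128 min in YPD and -1.22 in glucose.

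Tests against 0 min used limma over 5826 genes that had a value in every group, with p-values adjusted over all of them and a threshold of 0.05. They covered 27 of the 29 genes, since FOX2 lacked a kept spot at 8 min in YPD and POT1 at 0 and 8 min. The comparisons within a medium share their 0 min arrays. At 32 min in YPD 5 of 9 oxidation genes fell and 1 rose, and 7 of 18 biogenesis genes fell and 2 rose, where 26.5% of all genes fell and 22.4% rose. The median difference was -1.08 for oxidation, -0.44 for biogenesis and -0.05 for all genes. Without the YPD arrays numbered 2 only 2 oxidation genes were called lower at 32 min, and without those numbered 1 there were 3. The 2 rises among biogenesis genes dropped to 0 without the YPD arrays numbered 3 or the glucose arrays numbered 1, and to 1 without either set numbered 2. At 128 min 6 oxidation genes and 9 biogenesis genes fell (background 25.8%), with median differences of -1.65 and -0.48. Without the YPD arrays numbered 3 the biogenesis count at 128 min was 5.

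Between 32 and 128 min the calls moved in and out around a steady core. At 48 min 6 genes of each class fell, and PEX5 and CTA1 rose (background 26.3% lower and 19.4% higher). At 64 min 8 of 9 oxidation genes fell, all but CTA1, which rose, and 8 of 18 biogenesis genes fell with none higher (background 28.5% lower and 22.9% higher). The median differences at 64 min were -1.42 for oxidation and -0.42 for biogenesis genes. At 96 min 5 oxidation genes and 8 biogenesis genes fell, while CTA1 and 3 biogenesis genes (PEX5, PEX6 and PEX10) rose (background 26.3% lower and 20.4% higher). CTA1, PXA2, PEX15 and PEX18 were among those called at all 3 times whichever set of YPD arrays was left out, and so was POX1 without those numbered 1 or 2. Some omissions left a group without a value and could not be tested, namely the glucose arrays numbered 2 for CTA1, PEX3 and PEX6, those numbered 1 or 2 for PEX21, those numbered 2 or 3 for PXA2, and the YPD arrays numbered 3 for POX1 and PEX8. Among the others at 48 min, ECI1, FAA2, PEX11 and TES1 were lost without the arrays numbered 1 or 2, PXA1 without those numbered 1, PEX5 and PEX17 without those numbered 2, and ECI1 and PEX17 without those numbered 3. At 64 min DCI1, FAA2, PEX14, SPS19 and TES1 were lost without the arrays numbered 1, DCI1 and PEX14 also without those numbered 2, and PEX17 without those numbered 3. At 96 min PEX3, PEX6, PEX10, PEX19 and SPS19 were lost without the arrays numbered 1, PEX6, PEX10 and PEX17 without those numbered 2, and PEX3, PEX6 and PEX17 without those numbered 3.

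The first calls came from biogenesis genes. At 4 min in YPD 4 biogenesis genes fell, among them PEX15, PEX17 and PEX7, and PEX5 rose (background 6.21% lower and 7.88% higher), and at 8 min PEX14, PEX15 and PEX4 fell and PEX21 and PEX8 rose (background 5.46% and 10.8%). No oxidation gene passed the test at either time. At 16 min 5 oxidation genes fell and CTA1 rose, beside 7 biogenesis genes that fell and 3 that rose (background 25.8% lower and 22.7% higher). PEX15 and PEX17 began high, at 0.93 and 0.87 at 0 min in YPD, and their early falls are read from that start. PEX17 was dim, with Cy3 above background on 8 of its 52 arrays, and Cy5 was not above background at 0 min on any array. The call at 4 min of PEX17 was lost without the YPD arrays numbered 2 or 3, that of PEX7 without those numbered 1 or 2, and that of PEX5 without any 1 of the 3. None of the 5 calls at 8 min held under every omission, PEX14 being lost without the YPD arrays numbered 1 or 2, PEX15 and PEX4 without any 1 of the 3, PEX21 without those numbered 2 and PEX8 without those numbered 1.

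In glucose the tests rested on 2 arrays at 0 min in place of 3, so counts of calls are not set against those of YPD. No member passed the test before 32 min, and at 4 min limma called none of the 5826 genes. At an unadjusted p under 0.05 the members were 0 of 27 at 4 min, 3 at 8 min and 4 at 16 min. At 8 min 2.44% of all genes were called higher and 0.395% lower, and at 16 min 9.22% and 6.75%. At 32 min CTA1 rose and POX1 and PXA1 fell, and no biogenesis gene passed (background 8.32% higher and 9.15% lower). Without the YPD or the glucose arrays numbered 2 no oxidation gene was called lower at 32 min, and without the glucose arrays numbered 3 there were 2 biogenesis genes higher and 1 lower. At 48 min 2 biogenesis genes, one of them PEX18, and 3 oxidation genes (POX1, PXA1 and PXA2) fell and PEX5 rose (background 10.4% lower and 8.41% higher). At 64 min 4 biogenesis genes (PEX14, PEX15 and PEX18 among them) and 4 oxidation genes (POX1, PXA1, PXA2 and SPS19) fell and PEX21 rose (background 12.6% and 11.4%), and at 96 min the same genes were called except PEX14, with CTA1 also higher (background 13.8% and 11.5%). PEX18 at 96 min kept its call under all 6 omissions, and PXA2 at 48 and 96 min, PEX21 at 64 min and CTA1 at 96 min did so under the 4 or 5 that could be tested. These last 3 genes had a single kept array at 0 min in glucose, and their tests take its spread from the other groups. The other genes named at these times were each lost without the glucose arrays numbered 1, without those numbered 2, or in both cases, except PEX21 at 96 min, which was lost without the YPD arrays numbered 2. At 128 min 4 of 9 oxidation genes fell (POX1, PXA1, ECI1 and SPS19) and 4 of 18 biogenesis genes fell (PEX15, PEX18 and PEX19 among them), against 14.1% of all genes. These counts leaned on single sets of arrays, because without the glucose arrays numbered 1 they were 0 and 2, and without those numbered 2 they were 1 and 1. Over the whole course, an F-test of any change with time called 16 of 18 biogenesis and 8 of 9 oxidation genes in YPD (background 79.6%), and 6 of 18 and 6 of 9 in glucose (background 47.6%). The glucose count for biogenesis was 3 without the arrays numbered 1 and 12 without those numbered 3, and that for oxidation was 3 without those numbered 2.

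**Figure D3:**
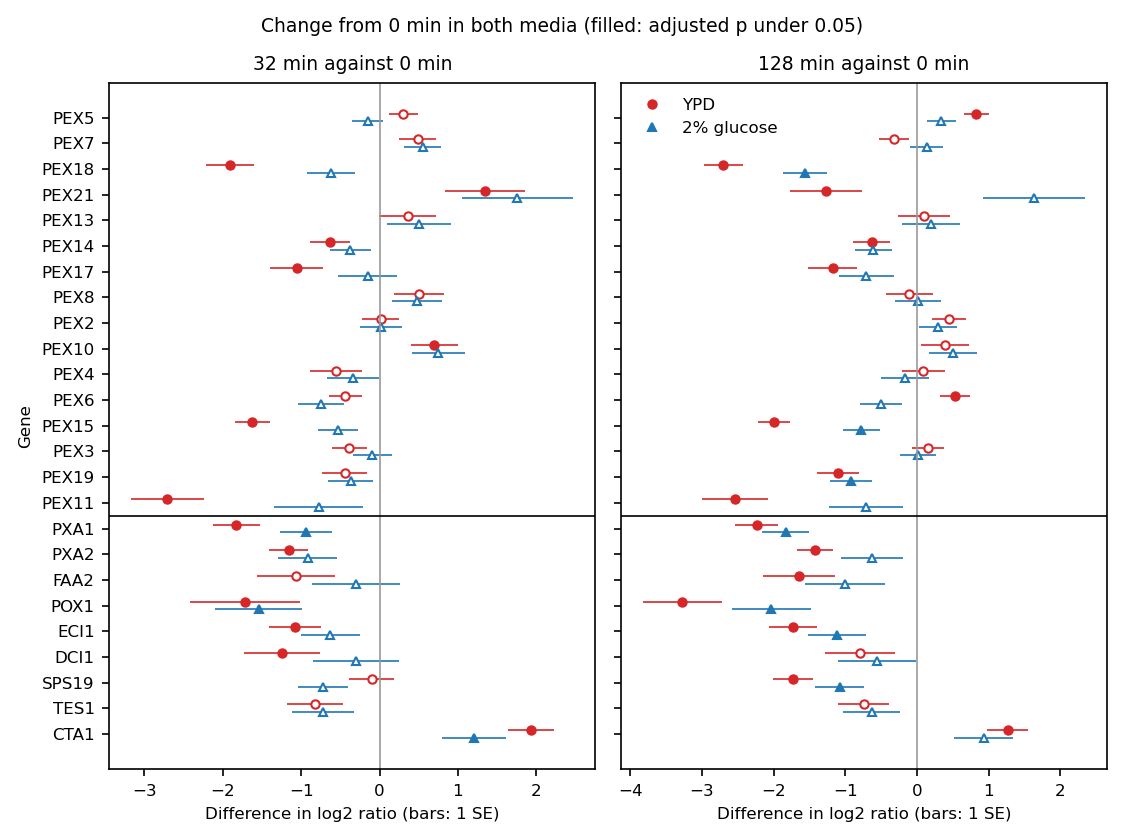
Difference in log2 ratio against 0 min (horizontal axis, bars of 1 SE) for 25 of the 27 tested genes at 32 min (left) and 128 min (right), in YPD (circles) and 2% glucose (triangles), filled where the adjusted p was under 0.05. PEX11, PEX18, PXA1 and POX1 lie far to the left in YPD, and CTA1 lies to the right at 32 min in both media.

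The 3 enzymes of the beta-oxidation cycle gave the deepest falls among the members. POX1, the acyl-CoA oxidase of the opening step, read 0.14, 0.07 and 0.13 at 0 min in YPD, -1.30, -2.93 and -2.83 at 16 min, and -3.16 and -3.16 at 128 min on the arrays with kept spots. All kept arrays from 16 min on lay below those of 0 min. The difference was -2.47 (SE 0.49, adjusted p = 7.5e-05) at 16 min and -3.27 (SE 0.55, adjusted p = 7.1e-06) at 128 min, 9.66-fold lower. At 32 min just 1 array had a kept spot, at -1.61, the flagged spots of the others reading -3.25 and -3.49, and that call (-1.72, adjusted p = 0.039) was lost without the YPD arrays numbered 1 or 2. In glucose POX1 read -0.10 and 0.38 at 0 min, -2.08, -0.27 and -1.86 at 32 min, and -2.63, -1.60 and -1.46 at 128 min. It fell by 2.04 (SE 0.55, adjusted p = 0.0057) at 128 min, a call lost without the glucose arrays numbered 1 or 2, and by 1.54 (adjusted p = 0.048) at 32 min, a call lost without any 1 set of glucose arrays and without the YPD arrays numbered 1 or 2.

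FOX2, the multifunctional enzyme that hydrates and dehydrogenates the enoyl-CoA, read -0.14, -0.68 and -0.25 at 0 min in YPD, -1.56, -3.96 and -2.57 at 16 min, and -5.22, -5.54 and -3.59 at 128 min. Its group mean of -4.78 at 128 min was the lowest of any member. When genes were tested on a value in both groups compared, FOX2 was lower at 32 min by -3.27 (SE 0.67, adjusted p = 0.00021, 2 kept arrays at -4.27 and -2.98) and at 128 min by -4.43 (SE 0.60, adjusted p = 8.2e-07). Its Cy5 signal at 128 min was not above background on any array, so on that channel it was at least 7.97-fold lower than at 0 min. In this and the bound given for PEX15 the bright group's mean normalised Cy5 signal was set against a mean over the dim arrays. Each dim array entered with the larger of the gene's own signal and the dimmest spot above background on that array. The FOX2 bound sets Cy5 against Cy5 and rests on normalised signal from different arrays. The PEX15 bound sets Cy5 against Cy3 and is open to dye bias. In glucose FOX2 read -0.15 and -0.42 at 0 min and -4.04 and -2.36 at 128 min, a difference of -2.91 (SE 0.74, adjusted p = 0.0042).

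POT1, the thiolase that closes the cycle and is carried in by Pex7, had only flagged spots at 0 min in YPD, at 0.36, 0.44 and 0.30. At 4 min it read -0.18, -0.08 and -0.01, at 32 min -3.29, -3.20 and -2.0, and at 128 min -4.02, -3.55 and -3.04. With flagged spots kept, it was lower than at 0 min by -3.22 (SE 0.54, adjusted p = 3.6e-06) at 32 min and by -3.91 (adjusted p = 1.1e-07) at 128 min. In glucose it read 0.35 on the single kept array of 0 min and -3.32, -1.95 and -1.29 at 128 min, a difference of -2.53 (SE 0.83, adjusted p = 0.022). Between media at 32 min, where glucose read -0.06 and -0.85 on its kept spots, POT1 was lower in YPD by -2.38 (SE 0.66, adjusted p = 0.0082), and the arrays of the media did not overlap. All of these POT1 and FOX2 tests came from settings other than the one used for the other members.

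**Figure D4:**
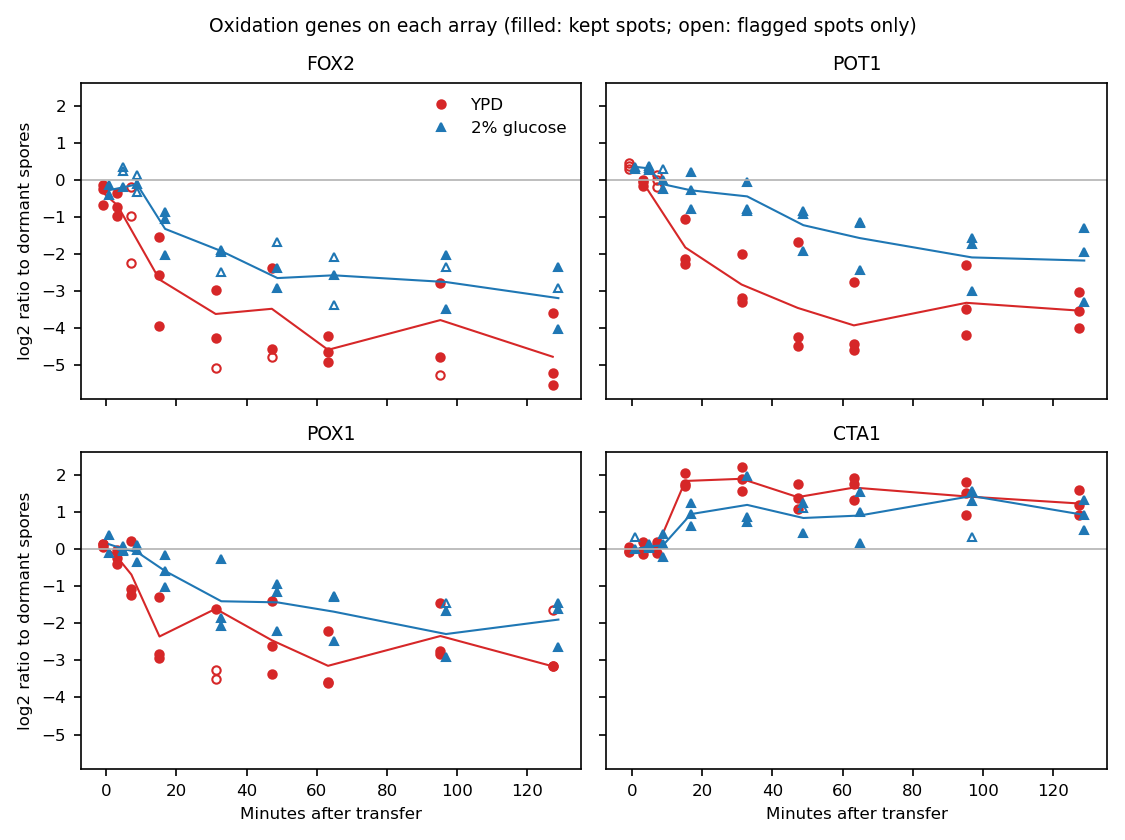
Log2 ratio to dormant spores (vertical axis) of FOX2, POT1, POX1 and CTA1 on each array, in YPD (circles) and 2% glucose (triangles), against minutes after transfer. Filled points are kept spots, open points had flagged spots only, and lines join the means of kept spots. FOX2 goes from between -0.14 and -0.68 to between -3.59 and -5.54 in YPD, and CTA1 rises to between 1.58 and 2.23 at 32 min.

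The transporter and the activating enzyme that feed the cycle moved the same way. PXA1, one subunit of the peroxisomal ABC transporter for long-chain acyl-CoA, read 0.24, -0.03 and 0.15 at 0 min in YPD, -1.60, -2.70 and -2.20 at 16 min, -2.03, -1.76 and -1.33 at 32 min, and -2.44, -2.02 and -1.89 at 128 min. It fell by 2.28 (SE 0.30, adjusted p = 6.1e-08) at 16 min, where Cy5 was not above background on any array. At 32 and 128 min it fell by 1.83 and 2.24 (SE 0.30 each), and these calls held without any 1 set of replicate arrays. In glucose PXA1 read 0.50 and -0.11 at 0 min, -0.61, -0.42 and -1.21 at 32 min, and -2.35, -1.43 and -1.14 at 128 min, with differences of -0.94 (adjusted p = 0.045) and -1.83 (adjusted p = 6.4e-05). The call at 128 min was lost without the glucose arrays numbered 1, and that at 32 min without any 1 set of glucose arrays or without the YPD arrays numbered 2. PXA2, the partner subunit, fell by 1.16 (SE 0.25) at 32 min and by 1.42 at 128 min in YPD. FAA2, the peroxisomal synthetase for medium-chain acyl-CoA, fell by 1.65 (SE 0.50, adjusted p = 0.0069) at 128 min in YPD, a call lost without the YPD arrays numbered 1 or 2.

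Auxiliary enzymes of fatty acid oxidation also fell in YPD, at differing times. ECI1, the enoyl-CoA isomerase for unsaturated acids, fell by 1.08 (SE 0.33) at 32 min and by 1.73 at 128 min in YPD, the former lost without the YPD arrays numbered 2. SPS19, the dienoyl-CoA reductase that is also named for its expression in sporulation, stood in YPD at -0.45 ± 0.19 (SD, n = 3) at 0 min and -0.55 ± 0.26 at 32 min, and had reached -2.17 ± 0.41 by 128 min. It fell by 1.73 (SE 0.28, adjusted p = 3.4e-06) at 128 min, with Cy5 at background level on all 3 arrays. TES1, the acyl-CoA thioesterase, already stood at -0.83 ± 0.20 at 0 min and passed the test at 16, 48 and 64 min. DCI1, a homologue of Eci1, had Cy3 above background on 19 of its 53 arrays. In YPD its Cy5 was not above background on any array of 0 or 32 min, so its difference at 32 min was not measured well. That difference of -1.25 (SE 0.49, adjusted p = 0.032) was lost without the YPD arrays numbered 1 or 2. The F-test of any change with time in YPD did not call DCI1 (adjusted p = 0.069).

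CTA1 went against the other oxidation genes. The peroxisomal catalase, which breaks down the hydrogen peroxide that the oxidase makes, read 0.05, -0.05 and -0.08 at 0 min in YPD, 2.06, 1.71 and 1.77 at 16 min, 1.58, 1.90 and 2.23 at 32 min, and 0.92, 1.19 and 1.61 at 128 min. All arrays from 16 min on lay above all arrays of 0, 4 and 8 min. It rose by 1.93 (SE 0.29, adjusted p = 8.1e-07) at 32 min, 3.81-fold, and by 1.26 (SE 0.29) at 128 min. In glucose the single kept array of 0 min read -0.00, those of 32 min 0.88, 1.97 and 0.75, and those of 128 min 0.93, 1.33 and 0.52. The difference was 1.20 (SE 0.41, adjusted p = 0.038) at 32 min, a call with 1 array at 0 min that was lost without the YPD arrays numbered 2 or 3. At 16 min CTA1 was higher in YPD than in glucose by 0.89 (SE 0.29, adjusted p = 0.026), with no overlap of arrays, and that call was lost without any 1 set of YPD arrays or without the glucose arrays numbered 1.

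Among the biogenesis genes, PEX11 fell most at 32 min. Pex11 promotes the elongation and division of peroxisomes, and its gene is induced by oleate together with the oxidation genes. PEX11 read -0.46, -0.58 and -0.15 at 0 min in YPD, -1.35, -3.40 and -2.81 at 16 min, -3.67, -3.21 and -2.43 at 32 min, and -3.28, -3.66 and -1.87 at 128 min. It fell by 2.71 (SE 0.46, adjusted p = 6.5e-06) at 32 min, 6.52-fold, and by 2.54 at 128 min, in both cases under every omission of replicate arrays. In glucose it read -0.65 and -0.01 at 0 min, -1.12 and -1.09 at 32 min, and -1.63, -1.05 and -0.45 at 128 min, and it passed the test at no time there. Its difference of -0.78 at 32 min in glucose had a 95% interval from -1.89 to 0.33.

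The pair of co-receptors for Pex7, PEX18 and PEX21, were called in opposite directions at 16 and 32 min in YPD. The PEX21 calls at these times did not hold under every omission of replicate arrays. Pex18 and Pex21 are related proteins that each help Pex7 bring thiolase into the peroxisome, and either can serve in yeast. PEX18 read -0.15, 0.01 and 0.05 at 0 min in YPD, -1.64, -1.44 and -1.24 at 16 min, -1.89 and -1.98 at 32 min, and -2.27, -2.86 and -3.05 at 128 min. It fell by 1.91 (SE 0.31, adjusted p = 2.05e-06) at 32 min and by 2.70 (SE 0.27, adjusted p = 1.1e-10) at 128 min, 6.50-fold. Both calls held under every alternative that could be computed. In glucose PEX18 read -0.03 and 0.36 at 0 min, -0.18, -0.58 and -0.62 at 32 min, and -1.75, -1.49 and -0.95 at 128 min. Its difference of -0.62 at 32 min in glucose did not pass (adjusted p = 0.16), and it fell by 1.56 (SE 0.31, adjusted p = 0.00017) at 128 min.

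PEX21 read 0.76, 0.02 and 1.43 at 0 min in YPD, 2.44 and 4.09 at 8 min, 3.18, 1.82 and 2.48 at 16 min, 1.43, 2.03 and 2.79 at 32 min, and -1.01, -0.77 and 0.18 at 128 min. Its highest array was one of 8 min, and the arrays of 128 min overlapped those of 0 min. The rise at 8 min was 2.53 (SE 0.56, adjusted p = 0.0012) and that at 32 min 1.34 (SE 0.50, adjusted p = 0.026). Cy5 of PEX21 was not above background on any array of 0 min, so these differences start from a signal that was not measured well. The 8 min call was lost without the YPD arrays numbered 2 and the 32 min call without those numbered 2 or 3. The rise called at 16 min did not hold under every omission either. The difference of -1.27 (adjusted p = 0.038) at 128 min was read from the dim 0 min arrays, was lost in 10 of 16 alternatives, among them without any 1 set of YPD arrays, and ran against the Cy5 signal, which was above background at 128 min.

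In glucose PEX21 read 0.08 on the single kept array of 0 min, 1.26, 2.76 and 1.48 at 32 min, 3.01, 1.85 and 2.28 at 64 min, and 0.96, 2.32 and 1.83 at 128 min. With that single array as the 0 min group, whose spread the fit takes from the other groups, the rise passed the test at 64 min, by 2.31 (SE 0.71, adjusted p = 0.016), and at 96 min, by 1.87 (adjusted p = 0.049), and did not at 32 or 128 min. The F-test of any change with time in glucose did not call PEX21. At 128 min PEX21 was lower in YPD than in glucose by -2.24 (SE 0.50, adjusted p = 0.0023), 4.71-fold, with no overlap between the arrays of the media.

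**Figure D5:**
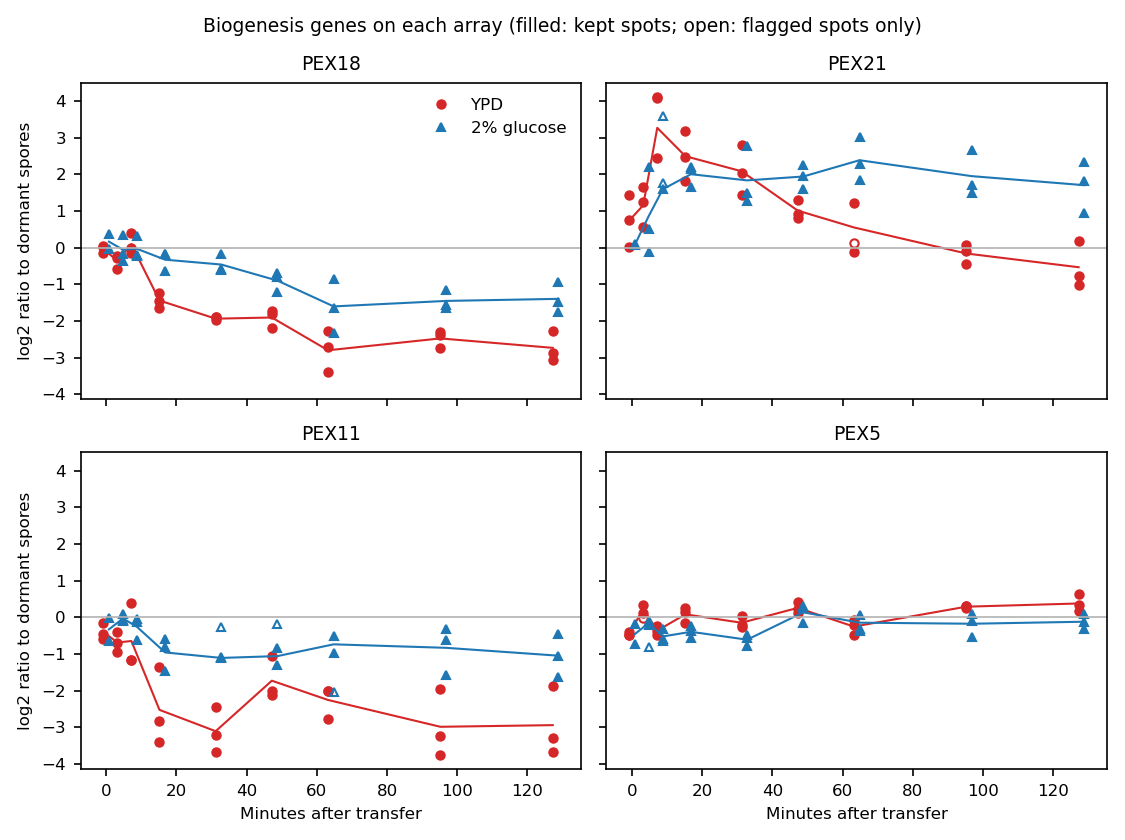
Log2 ratio to dormant spores (vertical axis) of PEX18, PEX21, PEX11 and PEX5 on each array, in YPD (circles) and 2% glucose (triangles), against minutes after transfer. Filled points are kept spots, open points had flagged spots only, and lines join the means of kept spots. PEX18 ends between -2.27 and -3.05 in YPD. PEX21 has its highest YPD array at 8 min and stays between 0.96 and 2.32 at 128 min in glucose. Kept spots of PEX5 lie between -0.78 and 0.63.

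Every called change of the import receptors PEX5 and PEX7 against 0 min was under 2-fold. PEX5, the receptor for the C-terminal targeting signal carried by most matrix enzymes, read -0.49, -0.47 and -0.39 at 0 min in YPD and 0.34, 0.63 and 0.17 at 128 min, without overlap. It rose by 0.83 (SE 0.18, adjusted p = 0.00026) at 128 min, 1.78-fold, and passed the test upward at 4, 16, 48 and 96 min too, but not at 8, 32 or 64 min. In glucose PEX5 read -0.72 and -0.19 at 0 min and -0.11, 0.09 and -0.33 at 128 min. PEX7, the receptor for the N-terminal signal used by thiolase, read 0.04, 0.28 and -0.10 at 0 min in YPD, -0.58, -1.02 and -0.26 at 4 min, 0.77 and 0.35 at 32 min, and -0.12, -0.21 and -0.39 at 128 min. It fell by 0.70 (SE 0.21, adjusted p = 0.019) at 4 min and by 0.53 (adjusted p = 0.034) at 16 min, and its difference of 0.49 at 32 min did not pass (adjusted p = 0.082). Both PEX7 calls were lost without the YPD arrays numbered 1 or 2.

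Of the docking complex, through which loaded receptors reach the membrane, PEX14 fell at 8, 32, 64 and 128 min in YPD, with -0.63 (SE 0.26) at 32 min, a call lost without the YPD arrays numbered 1 or 2 or without the glucose arrays numbered 2. Its calls at the other times did not hold under every omission of replicate arrays either. PEX13 passed at no time. PEX17 passed downward at 7 times, all except 8 min, from 0 min arrays on which its Cy5 was not above background. Its calls from 32 min on were lost without the YPD arrays numbered 3, and with dormant spores as the baseline only that of 16 min passed (-0.59, adjusted p = 0.031). PEX8, which links docking to the ubiquitin ligases, rose by 1.22 (SE 0.32) at 8 min and by 1.73 at 16 min in YPD, the latter from 1 kept array. The 8 min call was lost without the YPD arrays numbered 1. PEX8 was back at -0.06 ± 0.52 (SD, n = 3) at 32 min.

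Genes of receptor ubiquitination, which readies receptors for recycling, made few lasting changes in the members described here. PEX2, a RING ligase, passed at no time and lay between -0.10 and 0.68 in every YPD group. PEX10, another RING ligase, read -0.19, -0.58 and -0.11 at 0 min and -0.22, 0.99 and 0.45 at 32 min, groups that overlapped. Its rise of 0.70 (SE 0.30, adjusted p = 0.0497) at 32 min was lost in 11 of 18 alternatives, among them without the YPD arrays numbered 2 or 3 and without the glucose arrays numbered 1. PEX4, the ubiquitin-conjugating enzyme of the same step, fell by 1.09 (SE 0.33) at 8 min and by 1.10 at 16 min and was back at 0.46 ± 0.11 (SD, n = 3) at 128 min. The PEX4 call at 8 min was lost without any 1 set of YPD arrays and that at 16 min without those numbered 3.

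PEX6, an ATPase that pulls receptors back out of the membrane, and its anchor PEX15 ended apart at 128 min in YPD. PEX6 read -0.36, -0.53 and -0.17 at 0 min, -0.69, -0.88 and -0.80 at 32 min, and 0.09, 0.18 and 0.26 at 128 min. Its arrays of 32 min lay below those of 0 min without a call, and those of 128 min lay above them. At 128 min PEX6 rose by 0.53 (SE 0.21, adjusted p = 0.034), a call lost without any 1 set of YPD arrays. PEX15, the tail-anchored protein that holds this ATPase at the membrane, read 0.84, 1.02 and 0.93 at 0 min, -0.06, -0.54 and -0.68 at 4 min, and -1.30, -1.0 and -0.90 at 128 min. It fell by 1.36 (SE 0.23, adjusted p = 3.2e-05) at 4 min and by 2.0 at 128 min, and passed at all 8 times in YPD. The weakest of these, -0.68 at 8 min, was lost in 9 of 20 alternatives, among them without any 1 set of YPD arrays, and was 0.25 against dormant spores. At 0 min in YPD PEX15 was at least 1.63-fold above dormant spores, whose Cy3 signal was not above background.

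The membrane protein factors differed from each other. PEX3, which anchors the import of membrane proteins, read 0.16, 0.02 and 0.02 at 0 min in YPD, -0.56, -0.37 and -0.04 at 32 min, -0.71, 0.08 and -0.90 at 96 min, and -0.22, 0.29 and 0.60 at 128 min. It passed the test only at 96 min, by -0.58 (SE 0.22, adjusted p = 0.032), where the arrays overlapped those of 0 min. PEX19, the chaperone of those proteins, fell at 64, 96 and 128 min, by 1.10 (SE 0.29, adjusted p = 0.0019) at 128 min, a call lost without the YPD arrays numbered 1.

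Between media, the F-test called 11 of 18 biogenesis and 5 of 9 oxidation genes (background 46.5%). Without single sets of arrays the biogenesis count fell to 5 (without glucose numbered 1) or 6 (without glucose numbered 2, or YPD numbered 2 or 3), and the oxidation count to 1 (without YPD numbered 2), 2 (without glucose numbered 2 or 3) or 3 (without YPD numbered 1 or 3). No member passed limma's test at 0, 4 or 8 min, where 1, 5 and 4 of 27 had an unadjusted p under 0.05 (background 6.57% higher and 2.13% lower at 4 min, and 2.4% higher and 1.03% lower at 8 min). At 32 min 3 biogenesis genes, PEX11 and PEX18 among them, and PXA1 were lower in YPD (background 13.6% lower), and no member was called higher (background 9.27%). PEX11 was lower by -2.0 (SE 0.52, adjusted p = 0.0045) and PEX18 by -1.48 (SE 0.31, adjusted p = 0.00045), both without overlap of arrays. The PEX11 call was lost without the glucose arrays numbered 1, and that of PXA1 (-0.96) without YPD numbered 1 or 2 or glucose numbered 1 or 2. At 128 min PEX11 (-1.89), PEX18 (-1.34) and PEX21 (-2.24) were lower in YPD (background 6.49%) and none was called higher (background 3.02%), the PEX11 call being lost without the YPD arrays numbered 2 or the glucose arrays numbered 3. At the times not yet given, PEX11, PEX18, POX1, PXA1 and TES1 were lower in YPD at 16 min (background 10.7%) and PEX18 and TES1 at 48 min (background 7.93% lower and 1.6% higher). PEX11, PEX18, PEX19, PEX21 and POX1 were among those lower at 64 min (background 13.5% lower and 6.3% higher), and PEX3, PEX11, PEX15, PEX18, PEX19 and PEX21 were lower at 96 min (background 10.2%). PEX18 and PXA1 at 16 min, PEX18 at 64 min, and PEX11 and PEX18 at 96 min kept these calls whichever set of arrays was left out, and PEX21 at 96 min under the 4 omissions that could be tested. POX1 and TES1 at 16 min were lost without the YPD arrays numbered 2, PEX11 without those or the glucose arrays numbered 2, and TES1 also without the YPD arrays numbered 3 or the glucose arrays numbered 2. Both calls at 48 min were lost without the sets numbered 2 in either medium. At 64 min PEX19 was lost without the YPD arrays numbered 1 or 3 or the glucose arrays numbered 3, PEX21 without the YPD arrays numbered 1, POX1 without YPD numbered 1 or 2 or glucose numbered 1 or 3, and PEX11 without YPD numbered 2 or any 1 set of glucose arrays. At 96 min PEX3, PEX15 and PEX19 were lost without the YPD arrays numbered 1 or 3. PEX18 was lower in YPD at every time from 16 min. PEX4 at 96 min (background 6.09%) and CTA1 at 16 min (background 8.62%) were the only members called higher in YPD at any time. The PEX4 call was lost without the YPD arrays numbered 2 or the glucose arrays numbered 1, and that of CTA1 without any 1 of the YPD sets or the glucose arrays numbered 1.

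A test of whether the change with time differed between media called 4 of 18 biogenesis genes (PEX15, PEX18 and PEX21 among them) and 0 of 9 oxidation genes, with a background of 21.5%. For the oxidation genes a single time passed, PXA1 at 16 min (background 2.51% lower).

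The course of each gene over the groups was set beside that of FOX2, as a description over 17 groups that all share the dormant reference RNA. Among the genes named here the closest was PEX18 (Pearson's r 0.97), followed by POX1 (0.96), POT1 (0.96, over 16 groups), PXA1 (0.94), DCI1 (0.92) and PEX19 (0.92). PEX15 (0.89) and PEX11 (0.84) were near as well. CTA1 ran opposite (-0.85), PEX5 less so (-0.55), and PEX21 (0.13) and PEX6 (-0.01) followed neither way. Among the biogenesis genes r ranged from 0.97 for PEX18 to -0.55 for PEX5.

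Neighbouring functions were counted at 32 min in YPD, where 26.5% of all genes fell and 22.4% rose, and several of the counts lie near those shares. All 9 tested genes of carnitine and acyl-CoA supply fell, led by ACS1 (-4.74), an acetyl-CoA synthetase, and CAT2 (-3.12), the carnitine acetyltransferase. Of 6 tested genes of the glyoxylate cycle and its peroxisomal partners 4 fell, led by MDH3 (-3.40), the peroxisomal malate dehydrogenase that reoxidises NADH from the cycle, and ICL1 (-2.88), isocitrate lyase. Their median differences were -1.18 and -1.74. Among 12 other peroxisomal enzymes and carriers 6 fell, led by PNC1 (-3.53, 1 array) and GPD1 (-2.38), and FSH3 rose (1.57). Of 8 genes of turnover by autophagy and lipases 5 fell, led by ATG8 (-2.20) and ATG1 (-1.69), and none rose.

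Of the regulators, OAF1 and PIP2, which form the oleate-responsive activator, fell by 1.30 and 0.78, whereas ADR1, an activator of peroxisomal and other glucose-repressed genes, and MIG1, a glucose repressor, rose by 1.42 and 1.29. Against the same 26.5% lower and 22.4% higher, of 8 genes of peroxisome fission and inheritance 4 fell, led by INP2 (-1.62) and MDV1 (-1.16), and MYO2 rose (0.98). Of 10 tested PEX genes with no PEX symbol on the array 4 fell, led by PEX32 (-1.16) and PEX29 (-0.82), and PEX25, which acts with Pex11 in proliferation, rose (1.65). Among 9 genes of fatty acid synthesis 2 fell, OLE1 (-2.26) and HFA1 (-1.70), and 3 rose, led by ELO3 (1.78) and FAS2 (0.97), with a median of -0.08. In glucose at 32 min 1 of the 9 carnitine and acyl-CoA genes and 3 of the 6 glyoxylate genes fell, and none of the turnover genes passed, where 9.15% of all genes fell and 8.32% rose.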

How the data were processed

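Spotted 2-colour arrays of spores in YPD or 2% glucose were used, 53 in all with 13056 spots each. The authors scanned and quantified the arrays and deposited per-spot intensity (mean, median and background of both dyes, with quality flags) per the file headers, which name ImaGene 6.0.1, while the methods name another quantification program. A table of mean log2 ratios per gene and time deposited by the authors was used as an alternative with no test.

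Spot means were corrected with normexp (offset 50), spots flagged as poor were left out, and log2 Cy5/Cy3 was normalised by global loess within arrays. The spots of a gene were averaged. A spot counted as above background at 2 SD over it. Genes with a value in every group (5826 tested, 392 left out) were fitted over all 18 groups with lmFit and eBayes (limma 3.58.1, statmod 1.5.0, R 4.3.3) and Benjamini-Hochberg adjustment over all of them. The number of arrays limits the precision.

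On simulated data for 32 min against 0 min in YPD (5826 genes, 200 changed), 70% of 2-fold and 95% of 4-fold changes were found and 4.62% of calls were false. The simulation drew independent noise, held no day effect and changed far fewer genes than were called in the data. Its rates therefore need not hold for the calls given here. Members and lists were chosen with earlier results of these data known. Some members are counted in the class totals but not reported by name here. Values on every array are given for the 3 largest rises and falls against 0 min at 32 and 128 min in each medium, the 3 largest differences between media at those times, and POX1, FOX2, POT1, PEX5, PEX7, PEX3, PEX11 and PEX21. PEX15 was added after its values were seen. Genes of related lists are the largest 2 called rises and falls at 32 min. Replicate numbers come from file names. Across genes, deviations of arrays with the same number correlated at 0.0428 on average in YPD (lowest -0.342) and 0.129 in glucose (lowest -0.269), so the numbers were not taken to pair arrays. Alternatives covered background, normalisation, flags, dim spots, baseline, replicates, day and layout. The reference table matched names and locus tags only, so no coordinates or sequences are given.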

Additional observations from a re-analysis of the deposited data

Results flagged for a closer look

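For PEX15 and PXA1 the change from 0 min differed between media by a direct test of the difference, made with limma and adjusted over 5826 genes. For PEX15 the YPD change minus the glucose change was -1.36 (SE 0.34, adjusted p = 0.026) at 4 min, -1.26 (adjusted p = 0.028) at 16 min, -1.11 (adjusted p = 0.042) at 64 min, -1.52 (adjusted p = 0.0048) at 96 min and -1.22 (adjusted p = 0.044) at 128 min. All rest on the 0 min arrays, where PEX15 read 0.84, 1.02 and 0.93 in YPD and 0.14 and 0.30 in glucose. The Cy3 signal of PEX15 was above background on 30 of 53 arrays, and its part in these differences was not tested. For PXA1 the same difference was -1.73 (SE 0.45, adjusted p = 0.023) at 16 min.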

How the results depend on the processing

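Of 170 called differences of members, 39 held under every alternative that could be computed and 73 under every omission of a set of replicate arrays that could be tested, and by the authors' deposited means all 170 kept their sign. The rest below gives counts of called members as biogenesis or oxidation, and the cause of a shift was not tested unless said. Omitting 1 set of replicate arrays gave 3 to 12 biogenesis and 3 to 6 oxidation genes over time in glucose, and 5 to 14 and 1 to 5 between media. Against 0 min in YPD it gave 0 to 2 biogenesis genes higher, and 0 to 1 oxidation genes higher and 2 to 6 lower at 32 min, and 1 to 3 and 5 to 9 biogenesis genes higher and lower and 0 to 1 oxidation genes higher at 128 min. In glucose it gave 0 to 2 and 0 to 1 biogenesis genes and 0 to 1 and 0 to 1 oxidation genes higher and lower at 32 min, and 1 to 6 biogenesis genes lower, 0 to 1 oxidation genes higher and 0 to 4 lower at 128 min. Without the glucose arrays numbered 2, CTA1 had no value at 0 min in glucose and was not tested, hence 0 oxidation genes higher.

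With no background subtraction 2 oxidation genes were lower at 32 min in YPD, and in glucose 2 biogenesis genes were higher and 2 lower and 0 oxidation genes higher and 1 lower at 32 min, with 1 biogenesis gene higher and 1 oxidation gene lower at 128 min. Plain subtraction gave 3 oxidation genes between media, 0 biogenesis genes higher at 32 min in YPD, and 0 oxidation genes either way at 32 min in glucose, as did print-tip loess there. Median centring gave 1 biogenesis gene higher at 32 min in YPD, and 1 lower and 0 oxidation genes higher at 32 min in glucose. Spot medians gave 7 biogenesis genes between media, 0 higher at 32 min and 1 at 128 min in YPD, and in glucose 1 biogenesis gene higher at 32 min and 1 oxidation gene higher at 128 min. With flagged spots kept, so that FOX2 and POT1 could be tested, 8 oxidation genes were lower at 32 min in YPD and 7 at 128 min in glucose, and 1 biogenesis gene was higher at 32 and at 128 min in glucose. With dim spots left out, 0 and 1 biogenesis genes were higher at 32 and 128 min and 5 lower at 128 min in YPD, and 1 was lower at 32 min in glucose. Testing genes with a value in both groups gave 1 biogenesis gene higher at 32 min in YPD. The oxidation minus biogenesis median at 32 min in glucose was -0.45 with no background subtraction, -0.95 with plain subtraction, -0.62 with print-tip loess, -0.71 with median centring, -0.71 without dim spots and -0.48 from the authors' means.

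Against dormant spores in place of 0 min, 12 biogenesis genes changed over time in glucose, 8 oxidation genes were lower at 32 min in YPD, and in glucose 2 and 5 biogenesis genes were higher and lower and 6 oxidation genes lower at 32 min, with 2 and 7 biogenesis genes higher and lower and 1 oxidation gene higher at 128 min. PEX15 at 8 min in YPD turned to 0.25 there. Arrays of the compared medium alone gave 3 biogenesis genes over time, 0 and 1 oxidation genes higher and lower at 32 min and 2 lower at 128 min in glucose. Day as a fixed block gave 2 biogenesis and 1 oxidation genes over time in glucose, 1 and 1 biogenesis genes and 0 and 2 oxidation genes higher and lower at 128 min in YPD, 0 and 1 oxidation genes at 32 min, and 1 biogenesis and 1 oxidation gene lower at 128 min in glucose, and PEX21 at 128 min in YPD turned to 0.62. As a random block (correlation 0.299) day gave 2 oxidation genes between media, 0 biogenesis genes higher and 2 oxidation genes lower at 32 min and 5 biogenesis genes lower at 128 min in YPD, and 1 biogenesis and 0 oxidation genes lower at 32 min in glucose. Layout as a block gave 3 oxidation genes between media, and in glucose 2 and 1 biogenesis genes higher and lower and 1 oxidation gene lower at 32 min, with 1 gene of each class higher at 128 min.

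The replicate number as a block gave 1 biogenesis gene higher at 32 min in YPD and in glucose and 1 oxidation gene higher at 128 min in glucose, with the numbers not shown to pair the arrays. Of 142 called differences it took 3 past the threshold, PEX10 and PEX14 at 32 min and PEX14 at 128 min in YPD. Signal near background limits PEX17, DCI1, PEX7, PEX21 and PEX15, among others.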

Other observations

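The least negative of the 3 YPD arrays was the same array for POX1, FOX2, POT1 and FAA2 at each of 6 times, when flagged spots were kept. It was the array numbered 1 at 16 min, number 3 at 32, 48, 64 and 128 min, and number 2 at 96 min. PEX11 followed at all of these times except 64 min, when its least negative array was number 1. The array number is a name within each time and carries no order, and no test was made of this pattern.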
